A study of Mus musculus with 8 samples.

Results

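The 10 genes described here encode surface molecules through which macrophages stimulate, restrain or hold T cells: Cd40, Cd80, Cd86, Cd83, Cd274, Pdcd1lg2, Icosl, Icam1, Cd69 and Cd44. They were taken by symbol from a table of 23366 genes, and all 10 were present. A T cell needs a second signal beside antigen, and the B7 family gives it, with CD80 and CD86 binding CD28 or the inhibitory receptor CTLA-4 and ICOS ligand binding ICOS. PD-L1 and PD-L2, the products of Cd274 and Pdcd1lg2, bind the checkpoint receptor PD-1 and damp the response. In macrophages these molecules are known as activation markers that microbial products and interferons induce.

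The RNA came from bone marrow-derived macrophages, cells grown from mouse marrow, on the C57BL/6 background and at passage 1. The knock-in cells carried Lsd1SA/SA, an allele of the histone demethylase LSD1 that cannot be phosphorylated, according to the labels, and the wild-type cells carried the normal gene. Cells of all 4 groups were deprived of serum for 24 h. Lipopolysaccharide (LPS), a wall component of Gram-negative bacteria that triggers Toll-like receptor 4, was given for 2 h at a labelled dose of 1 mg/ml, a unit that may be an error in the labels and could not be checked, or the cells were left untreated. The groups were knock-in with LPS, knock-in untreated, wild type with LPS and wild type untreated, with 2 libraries each. No label says whether replicates came from separate animals or cultures, so p-values measure the spread between these libraries, which may be technical. The tests draw that spread in large part from genes of similar level rather than from each gene alone. The series title names LSD1 signalling to NF-kB in the control of inflammation, and the comparisons ask how LPS and the knock-in moved these transcripts.

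The libraries held 40379258 to 55595160 reads. Levels are in the deposited normalised CPM (read counts scaled to library size and to a further factor per library). That factor was 0.866 to 0.878 in wild type with LPS and 1.02 to 1.07 in the other 6 libraries. A smaller factor gives a higher level for the same share of reads. Changes are log2 differences of (level + 1) from limma over the 11919 genes with a level of at least 1 in 2 or more libraries, with Benjamini-Hochberg adjustment and a threshold of 0.05. The knock-in LPS libraries stood apart by sex. Xist, the RNA of the inactive X chromosome, was at 0.212 and 0.366 there, against 315 to 437 in the other 6 libraries, and 4 Y-linked genes together had 4993 to 5122 reads there, against 0 to 2. These libraries thus came from male cells and the others from female cells, so sex and the knock-in LPS label cannot be told apart in any comparison that uses them. The labelled macrophage identity held, since macrophage markers were abundant in every library. The 7 markers summed to 11835 to 12468 in knock-in LPS cells and 13070.3 to 13802 in untreated knock-in cells. The sums were 15323 to 15735 in wild type with LPS and 13172 to 13272 in untreated wild type. All genes of a library summed to 1139188 to 1155259 in wild type with LPS and 934403 to 934522 in untreated wild type. As a share of all genes, the markers were thus no higher with LPS in wild type. Lyz2 was the largest part of the marker sums, at 6010 to 6468 in knock-in LPS cells. With LPS in the knock-in, 1 of the 7 was called higher and 4 lower. Fcgr1 was at 898 to 927 there, against 286 to 288 in untreated knock-in cells, and Emr1 at 1062 to 1134, against 1418 to 1428. Marker sets of other cells also differed in the knock-in LPS libraries. Their 5 stromal markers summed to 53.2 to 53.7, against 15.9 to 16.9 in untreated knock-in cells and 13.8 to 14.4 in wild type with LPS, although of these Pdgfrb was lower than in wild type with LPS, at 1.66 to 1.98 against 3.54 to 3.96. The 4 endothelial markers summed to 27.2 to 27.8, against 7.44 to 8.80 in untreated knock-in cells and 5.98 to 6.40 in wild type with LPS. Nearly all of this was Kdr, and of the other 3 markers the highest, Cdh5, was at 0.741 to 1.14 in the knock-in LPS libraries. Their 7 dendritic cell markers, mostly Itgax and with Siglech at 0 in both LPS groups, summed to 5.86 to 6.23, against 36.7 to 39.2 in untreated knock-in cells and 52.0 to 52.3 in wild type with LPS. The 4 neutrophil markers summed to 344 to 360, against 271 to 279 and 596 to 622 in those groups. In untreated wild type they summed to 273 to 281, so for this set wild type with LPS stood furthest out. The 6 T cell markers, mostly Cd4, summed to 41.6 to 44.2 in the knock-in LPS libraries. They summed to 65.7 to 67.5 in untreated knock-in cells and 68.8 to 72.2 in wild type with LPS. B cell and NK cell markers summed to at most 2.28 in every library. The part of these other cells in the results was not tested, and in bulk RNA fewer cells of a type and less RNA per cell cannot be told apart.

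Promoter sequences were at hand for 6 of the 10 genes, from RefSeq on GRCm38.p6, a later build than the mm9 genome named for the reads. The 250 bases upstream of the start site are shown for a pair that behaved differently in the knock-in, Icam1 and Cd274. Capitals mark matches, on either strand, to any of 4 motifs. They are GGG and CC held apart by any 5 bases, the general NF-kB site, GGAANNTCC, another form of it, GAAA repeated after any 2 bases, the core of the interferon-stimulated response element, and TTCNNNGAA, the STAT-binding GAS element. Both windows lie on the plus strand, Icam1 at chr9:21015690-21015939 and Cd274 at chr19:29367188-29367437.
Icam1: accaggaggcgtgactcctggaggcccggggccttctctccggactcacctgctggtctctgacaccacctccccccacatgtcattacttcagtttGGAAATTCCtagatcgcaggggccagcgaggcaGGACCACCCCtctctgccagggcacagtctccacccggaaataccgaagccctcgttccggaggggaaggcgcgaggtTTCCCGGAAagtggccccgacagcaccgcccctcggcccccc
Cd274: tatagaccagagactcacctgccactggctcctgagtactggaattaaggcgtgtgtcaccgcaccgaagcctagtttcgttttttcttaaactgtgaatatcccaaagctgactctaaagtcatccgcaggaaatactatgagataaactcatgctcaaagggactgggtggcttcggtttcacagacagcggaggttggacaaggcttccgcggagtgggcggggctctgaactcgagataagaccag

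The Icam1 window held 3 matches that did not overlap. GGAAATTCC stood 153 bases upstream of the start. A match to the loose NF-kB pattern on the reverse strand (GGACCACCCC) stood 120 bases upstream, and the GAS match TTCCCGGAA 42 bases upstream. The Cd274 window held no match to any of the 4 motifs, which says only that these letters are not in those 250 bases. Over all 32851 promoter windows of this length, 45.8% held the loose NF-kB pattern, so a match to it does not show an NF-kB site. The GGAANNTCC form was in 3.59%, the interferon element core in 2.98% and the GAS element in 7.02%. The loose pattern also occurred in the windows of Cd80 (2 matches), Icosl (2), Cd44 (1) and Pdcd1lg2 (1).

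LPS raised 5 and lowered 3 of 9 tested members in knock-in macrophages, where 28.5% of all tested genes were called higher, 28.3% lower and 56.7% in either direction. Their median log2 change was 0.40, against 0.02 over all tested genes. In wild type, 9 of 9 were raised, where 26.8% of tested genes were called higher, 30.7% lower and 57.6% in either direction. The median change of the 9 was 3.46 there, against -0.03 over all tested genes. The LPS libraries did not overlap the untreated ones for 9 of 9 members in either genotype, and neither did those of 79.2% of tested genes in the knock-in and 76.1% in wild type. The 9 were above 1 in every library, and Pdcd1lg2 was below 1 in every library and was not tested.

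**Figure D1:**
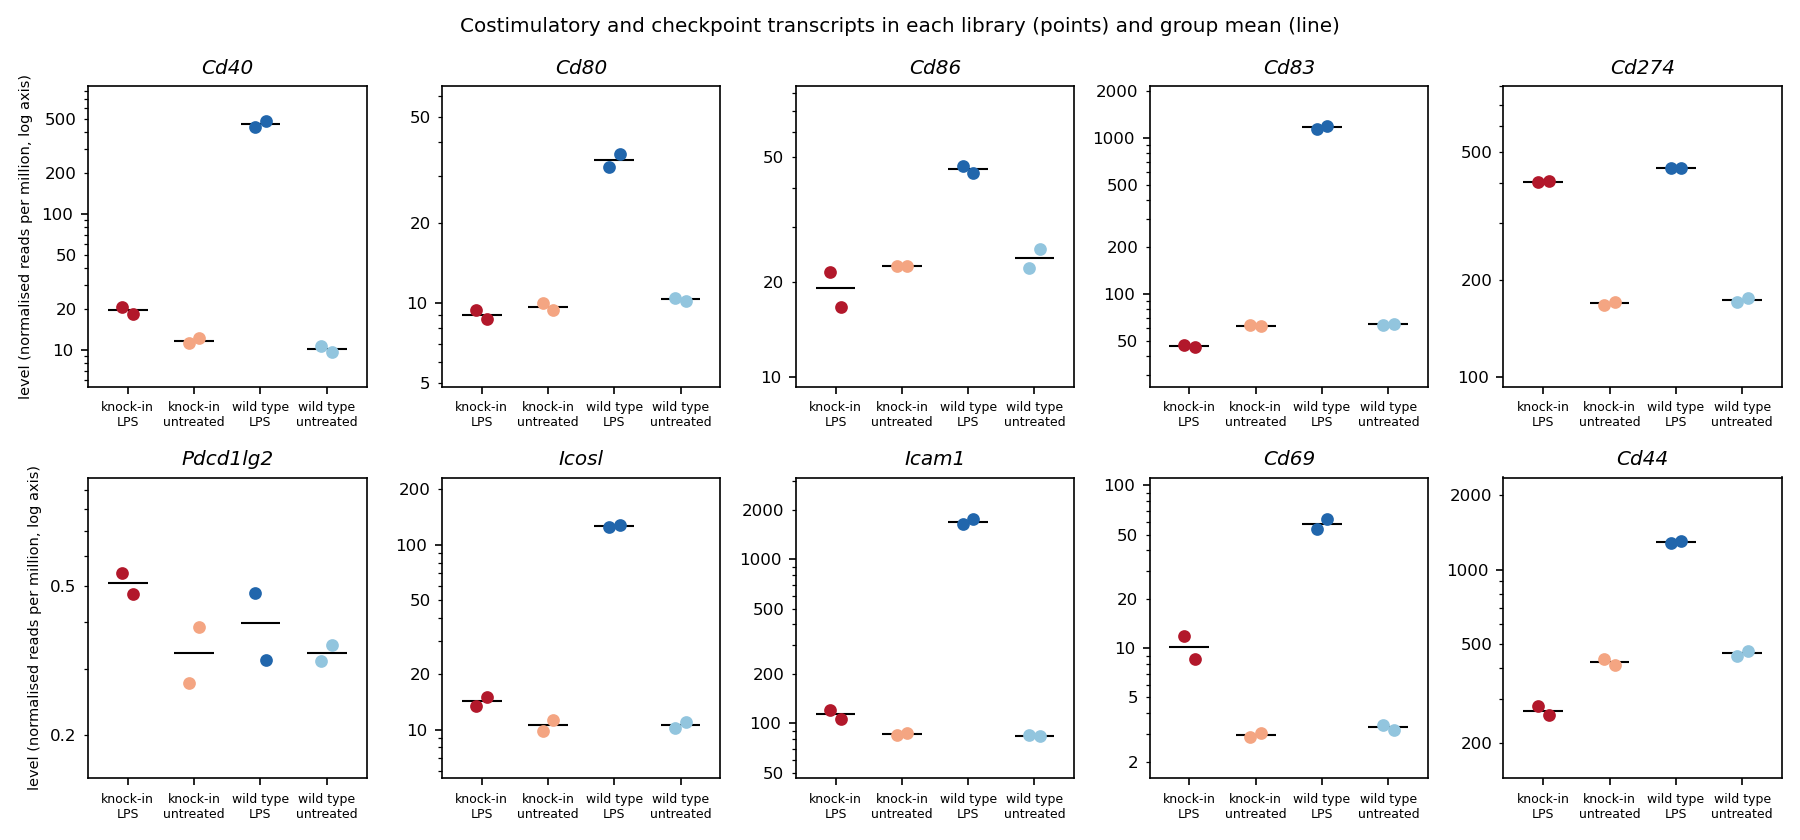
Level of each transcript in normalised CPM (vertical axis, log scale, its own range in each panel) in the 4 groups, with a point per library and a line at the group mean. For 8 genes wild type with LPS stands alone at the top. Cd274 is raised by LPS in both genotypes, and Pdcd1lg2 stays under 1 in every library.

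Cd40 encodes the receptor through which CD40 ligand on helper T cells activates macrophages and dendritic cells. It was at 20.7 and 18.4 in knock-in cells with LPS, against 11.3 and 12.2 in untreated knock-in cells. In wild type it was at 441 and 488 with LPS, against 10.7 and 9.65 untreated. LPS thus gave a 1.67-fold higher mean in the knock-in (log2 change 0.69 ± 0.08 SE, limma adjusted p = 3.79e-08) and a 45.6-fold higher mean in wild type (5.38 ± 0.08, limma adjusted p = 5.67e-26). The wild-type change was the largest among the tested members and lay above that of 99.7% of all tested genes.

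Cd80 and Cd86 encode the B7 ligands of CD28 and CTLA-4. Cd80 was at 9.35 and 8.68 in knock-in cells with LPS, against 9.97 and 9.36 untreated. In wild type it was at 32.2 and 36.2 with LPS, against 10.4 and 10.2 untreated. The groups of the knock-in lay next to each other without overlap, and the change did not pass (log2 change -0.09, 95% interval -0.28 to 0.10, limma adjusted p = 0.411), whereas wild type rose 3.32-fold (1.64, limma adjusted p = 7.60e-14).

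Cd86 had 21.6 and 16.7 in knock-in cells with LPS, against 22.5 and 22.6 untreated. Wild-type cells had 46.9 and 44.7 with LPS, against 22.2 and 25.5 untreated, a 1.92-fold rise that was the smallest of any tested member (log2 change 0.91, limma adjusted p = 5.29e-09). The knock-in groups did not overlap, though 1 LPS library lay close to the untreated ones. The decrease in the knock-in passed (-0.23, limma adjusted p = 0.0331) and rested on knock-in LPS replicate 2, without which it was -0.06 (limma adjusted p = 0.651). Over all alternatives its adjusted p ran from 9.97e-04 to 0.651, and the call was also lost with no filter (0.145), without untreated knock-in replicate 1 (0.0930) or replicate 2 (0.0939), and by DESeq2 (0.0687).

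Cd83, a marker of mature dendritic cells that restrains the ubiquitination and turnover of CD86 and MHC class II, moved in opposite directions in the genotypes. With LPS it was at 46.9 and 45.5 in knock-in cells, against 62.5 and 62.5 untreated, a decrease to 0.739 of the untreated mean (log2 change -0.43, limma adjusted p = 6.95e-08). In wild type it was at 1141 and 1191 with LPS, against 63.4 and 63.6 untreated, an 18.4-fold rise (4.18, limma adjusted p = 1.66e-27). The untreated libraries of both genotypes lay within 62.5 to 63.6.

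Icosl encodes the ligand of ICOS, which sustains helper and regulatory T cells. It was at 13.4 and 15.0 in knock-in cells with LPS, against 9.81 and 11.3 untreated. Wild-type libraries had 124 and 128 with LPS, against 10.2 and 10.9 untreated. The rise was 1.35-fold in the knock-in (log2 change 0.40, limma adjusted p = 2.76e-04) and 11.95-fold in wild type (3.46, limma adjusted p = 2.49e-21).

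The inhibitory ligand gene Cd274 rose by similar amounts in the 2 genotypes. It was at 403 and 404 in knock-in cells with LPS, against 167 and 171 untreated, and at 445 and 444 in wild type with LPS, against 171 and 176 untreated. The means were 2.39-fold higher with LPS in the knock-in (log2 change 1.25 ± 0.04 SE, limma adjusted p = 2.82e-17) and 2.56-fold higher in wild type (1.35 ± 0.04, limma adjusted p = 1.54e-18). Libraries within each group differed by less than the gap between LPS and untreated in both genotypes.

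Pdcd1lg2, the gene of the other PD-1 ligand, was barely read, with 12 to 28 reads per library. Its level was 0.540 and 0.476 in knock-in cells with LPS and 0.276 and 0.388 in untreated knock-in cells. Wild type had 0.477 and 0.317 with LPS and 0.316 and 0.347 untreated, and these groups overlapped. With no filter on low values, its log2 change with LPS was 0.18 in the knock-in (limma adjusted p = 0.0848) and 0.07 in wild type (limma adjusted p = 0.534). No difference passed, though the knock-in LPS libraries, at 28 and 27 reads, did not overlap the untreated ones, at 12 and 21. Such a gap also held for 79.2% of tested genes in the knock-in. The low depth and the 1 added before the log mean that the test could miss a difference. An annotated gene on the opposite strand, A930007I19Rik, had 4 to 29 reads per library, and reads of the pair cannot be told apart because no source states how strand was counted. Cd274, Icam1 and Cd44 each overlap an opposite-strand gene of the annotation that has no row in the table, and the other 6 members overlap none.

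Icam1 encodes the adhesion molecule that LFA-1 on T cells and neutrophils binds, and Cd44 the receptor for hyaluronan. Icam1 was at 120.4 and 107 in knock-in cells with LPS, against 84.6 and 87.1 untreated. In wild type it was at 1625 and 1739.7 with LPS, against 85.2 and 83.5 untreated. The rise was 1.32-fold in the knock-in (log2 change 0.40, limma adjusted p = 1.23e-06) and 19.9-fold in wild type (4.30, limma adjusted p = 6.71e-27).

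Cd44 had the clearest decrease in the knock-in. It was at 281 and 259 with LPS in the knock-in, against 437 and 412 untreated, so that LPS libraries held 0.635 of the untreated mean (log2 change -0.65 ± 0.05 SE, limma adjusted p = 4.32e-11). Wild type had 1285 and 1307 with LPS, against 449 and 468 untreated, a 2.83-fold rise (1.497 ± 0.05, limma adjusted p = 1.49e-18).

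Cd69 encodes an early activation antigen that holds the sphingosine phosphate receptor S1PR1 inside lymphocytes. It was at 11.9 and 8.61 in knock-in cells with LPS, against 2.87 and 3.01 untreated. In wild type it was at 54.2 and 62.2 with LPS, against 3.40 and 3.15 untreated. The mean was 3.49-fold higher with LPS in the knock-in (log2 change 1.498 ± 0.12 SE, limma adjusted p = 1.16e-10) and 17.8-fold higher in wild type (3.79 ± 0.12, limma adjusted p = 5.43e-19). In the knock-in this was the largest fold of the 9 tested members.

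**Figure D2:**
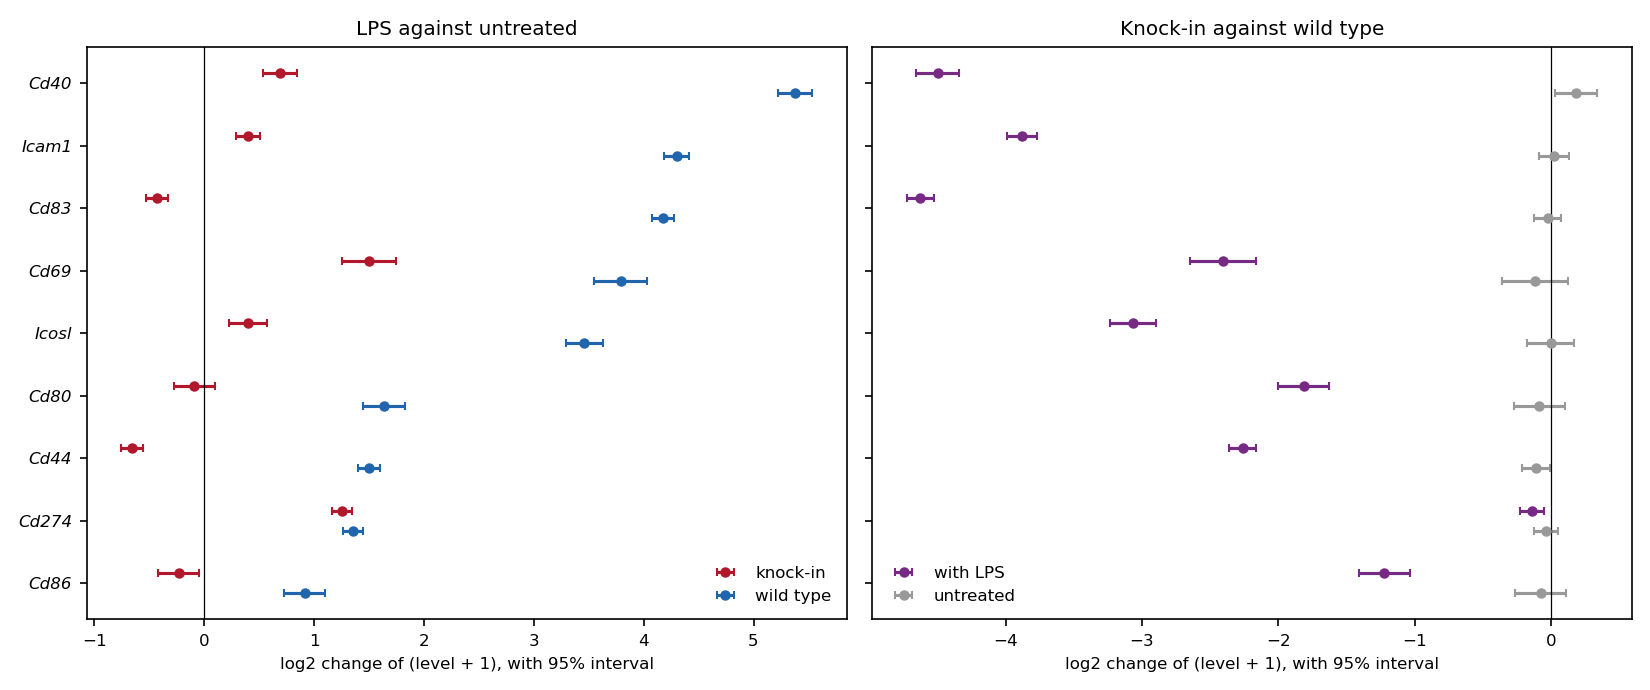
Left, log2 change with LPS in the knock-in (red) and in wild type (blue). Right, log2 difference between knock-in and wild type with LPS (purple) and untreated (grey). Points are limma estimates of log2(level + 1) and bars their 95% intervals. The right panel shows untreated differences near 0 and, with LPS, differences from -0.14 for Cd274 to -4.63 for Cd83.

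With LPS and the deposited scaling, 9 of 9 tested members were lower in the knock-in than in wild type. Of all tested genes, 36.8% were called lower there, 38.5% higher and 75.4% in either direction. Libraries did not overlap for 9 of 9, against 87.4% of tested genes. The median log2 difference was -2.41, against 0.02 over all tested genes. Cd83 averaged 46.2 ± 0.981 in knock-in cells with LPS and 1166 ± 35.0 in wild type with LPS (SD, n = 2 each), a 25.2-fold lower level (-4.63, limma adjusted p = 2.82e-28). Cd40 averaged 19.6 ± 1.61 and was 23.7-fold below the 464 ± 33.2 of wild type (-4.50, limma adjusted p = 2.20e-24). Icam1 was 14.8-fold lower (-3.88) and Icosl 8.88-fold lower (-3.07).

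Further members differed by less. Cd69 was 5.68-fold lower in the knock-in with LPS (-2.41), Cd44 4.81-fold (-2.26), Cd80 3.80-fold (-1.81) and Cd86 2.38-fold (-1.22). The limma adjusted p of these 8 genes was at most 1.64e-11. Cd274 stood apart at 403 ± 0.897 in the knock-in and 444 ± 0.632 in wild type (SD, n = 2 each), a 1.10-fold lower level (log2 difference -0.14, limma adjusted p = 0.00712). Its direction depended on the scaling, since quantile normalization gave 0.26, called higher (limma adjusted p = 2.03e-05). As shares of all reads, Cd274 had 20886 of 50927883 and 22904 of 55595160 in the knock-in with LPS. Wild type with LPS had 17694 of 45339505 and 19625 of 51099759, which are smaller shares. No test was run on that scale.

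Without LPS, 0 of 9 tested members passed limma between knock-in and wild type, where 0.00839% of tested genes (1 of 11919) were called in either direction. Unadjusted p was under 0.05 for 2 of the 9, Cd40 and Cd44, and edgeR and DESeq2 also called 0. Differences ran from -0.12 for Cd69 to 0.19 for Cd40, with a median of -0.04. Of all intervals, the lowest bound was -0.36 (Cd69) and the highest 0.34 (Cd40), and for each of the 9 its difference with LPS lay outside its untreated interval. For Cd274 the margin was small, with a lower bound of -0.13 against -0.14 with LPS. The interval of Cd274 with LPS, -0.23 to -0.05, overlapped the untreated one, so the 2 differences were not separated for this gene. Libraries of the 2 genotypes did not overlap for 6 of the 9, against 43.9% of tested genes. No alternative called a member, although without untreated wild-type replicate 1 the calls over all genes came to 263 higher and 220 lower.

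By the interaction term, the change from untreated to LPS libraries was smaller in the knock-in than in wild type for 8 of 9 tested members. Of all tested genes, 31.8% were called lower, 31.8% higher and 63.7% in either direction. In the knock-in that change sets male LPS libraries against female untreated ones, so LPS and sex cannot be told apart in it. The log2 differences in effect were -4.69 for Cd40, -4.60 for Cd83, -3.90 for Icam1, -3.06 for Icosl, -2.29 for Cd69, -2.15 for Cd44, -1.73 for Cd80 and -1.15 for Cd86, with a limma adjusted p of at most 4.36e-08. For Cd274 the difference was -0.10 (95% interval -0.23 to 0.03, limma adjusted p = 0.155). After quantile normalization it was 0.31 and called (limma adjusted p = 1.87e-04, range over all alternatives 1.87e-04 to 0.322).

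The 2 LPS effects share no library and can be set side by side as a share. Among 771 genes that limma called higher in wild type with a log2 change of at least 1, 382 were also called higher in the knock-in and 141 lower. The wild-type change that picked these genes is also the divisor, which favours low shares. Some, such as Tnfsf4, passed the level filter through wild type with LPS only, which holds their share near 0. The shares describe these genes and are no test. The median gene kept 9.54% of its wild-type log2 change in the knock-in, and the quartiles were -4.54 and 25.7%. Icam1 kept 9.22%, Icosl 11.5% and Cd40 12.9%, all close to that median. Cd69 kept 39.5%, above 84.8% of the 771 genes. Cd274 kept 92.4%, above 95.7% of them. Cd80 (-5.52%), Cd83 (-10.2%) and Cd44 (-43.7%) had negative shares, and 3.63% of the 771 genes lay below Cd44. Cd86 and Pdcd1lg2 did not reach the log2 change of 1 in wild type.

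**Figure D3:**
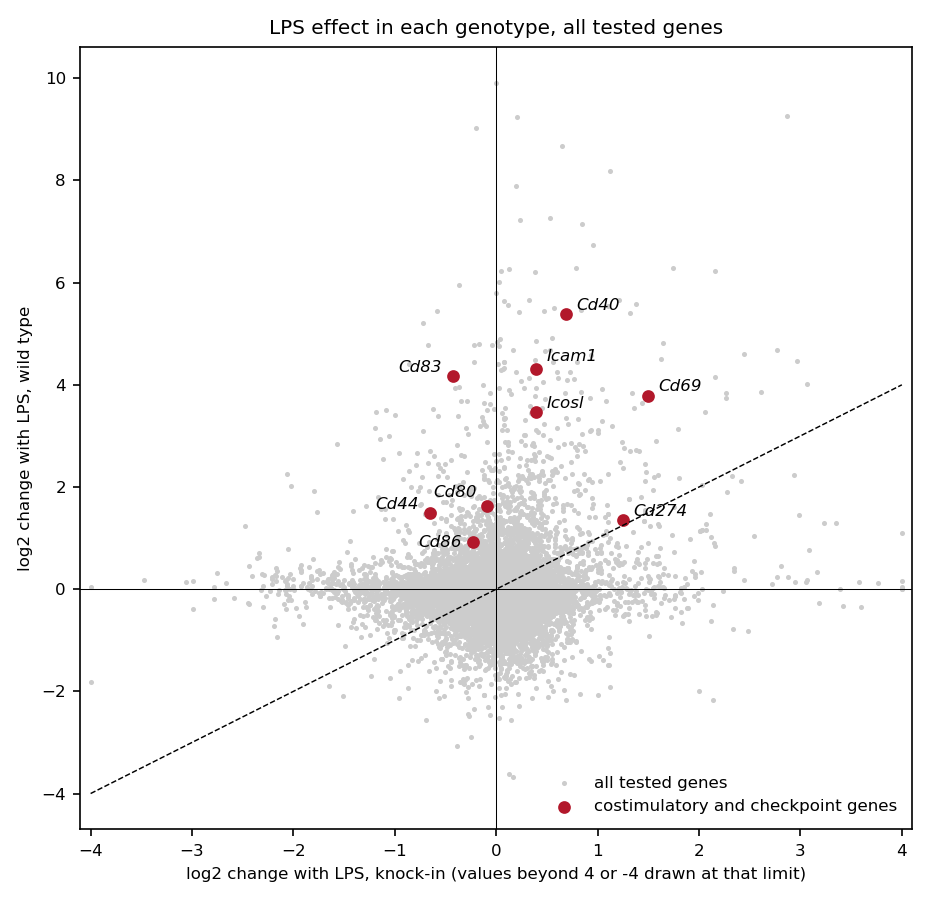
Log2 change with LPS in the knock-in (horizontal) against wild type (vertical) for 11919 tested genes (grey) and the 9 tested members (red), with the line of equal change dashed. Cd274 lies near the line at 1.25 and 1.35, and the other 8 lie well above it.

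Per kilobase of exon, a rough scale for comparing genes, the order of levels changed with LPS. Exon lengths were those of all GENCODE vM21 exons of a gene joined. The lengths of the transcripts present, and the annotation used for counting, are not known, so ranks between genes are approximate. In knock-in cells with LPS, Cd274 led at 111 per kb, ahead of Cd44 at 39.8 per kb, Icam1 at 26.04 per kb and Cd83 at 18.0 per kb. In untreated knock-in cells, Cd44 led at 62.7 per kb, followed by Cd274 (46.7 per kb), Cd83 (24.3 per kb) and Icam1 (19.7 per kb). In wild type with LPS, Cd83 led at 453 per kb, ahead of Icam1 at 386 per kb, Cd44 at 191 per kb, Cd40 at 136 per kb and Cd274 at 123 per kb. The untreated wild-type order was that of untreated knock-in cells, from 67.7 per kb for Cd44 and 47.8 per kb for Cd274 to 24.7 per kb for Cd83 and 19.3 per kb for Icam1. Pdcd1lg2 was the lowest in every group, at 0.169 to 0.259 per kb. Some neighbours did not differ beyond the larger of their SDs. In knock-in cells with LPS, Cd40 (5.74 ± 0.472 per kb) and Cd86 (5.24 ± 0.946 per kb) differed by less than the SD of Cd86, though not that of Cd40. In wild type with LPS, Cd80 (9.24 ± 0.769 per kb) and Cd69 (8.94 ± 0.869 per kb; SD, n = 2) were within 1 SD of each other.

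Other genes of the same pathways were followed as lists. Over all tested genes, LPS raised 28.5% and lowered 28.3% in the knock-in, and raised 26.8% and lowered 30.7% in wild type. With LPS, 38.5% were higher and 36.8% lower in the knock-in than in wild type. A list count near these shares is no result about the list. Of 13 genes of CD40 and NF-kB signalling, LPS raised 8 and lowered 1 in the knock-in (median log2 change 0.24), and raised 12 and lowered 1 in wild type (median 2.10). The largest changes in the knock-in were those of Tank (0.95) and of the CD40 adaptor genes Traf2 (0.67), Traf1 (0.61) and Traf3 (0.42). In wild type they were those of Nfkbia (4.68), which encodes the inhibitor that holds NF-kB in the cytoplasm, Traf1 (4.14) and the subunit genes Rel (3.52) and Nfkb2 (2.88). With LPS, 12 of the 13 were lower in the knock-in than in wild type and 1 higher, by a median of -1.65, with Nfkbia at -4.38, Rel at -3.69, Traf1 at -3.36 and Nfkb2 at -2.74.

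Costimulatory ligands of the TNF superfamily act on T cells alongside the B7 family. Of 6 tested genes, Tnfsf4, Tnfsf8 and Tnfsf18 reached a level of 1 in 1 group only and entered the test through it, so their calls were largely fixed by the filter and no count over the 6 is given. Tnfsf4, for the ligand of OX40, averaged 0.364 in knock-in cells with LPS, 0.161 in untreated knock-in cells, 50.5 in wild type with LPS and 0.199 in untreated wild type. Tnfsf18, for the ligand of GITR, averaged 1.18 in wild type with LPS and at most 0.472 in the other groups, and Tnfsf8, for the ligand of CD30, 1.62 in knock-in cells with LPS and at most 0.728 in the other groups. The other 3 genes could be compared. Tnfsf9, for the ligand of 4-1BB, rose in the knock-in (log2 change 0.53) and in wild type (7.26), as did Tnfsf15 in the knock-in (1.08) and in wild type (3.69). With LPS, Tnfsf9 (-6.74), Tnfsf15 (-2.62) and Tnfsf14 (-1.02) were lower in the knock-in than in wild type.

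Other B7-family and co-signalling genes were split. Of 14 tested, 4 rose and 5 fell in the knock-in (median 0.01), and 7 rose and 4 fell in wild type (median 0.15). Lgals9, for the TIM-3 ligand galectin 9, rose in the knock-in (1.31), as did Pvr (0.60), while Cd28 (-1.95) and Ceacam1 (-0.78) fell. In wild type, Pvr, for the ligand of DNAM-1 and TIGIT, rose by 3.16, Cd200 by 1.68, Pvrl2 by 1.22 and Tnfrsf14 by 0.56. With LPS, Lgals9 was at 1.32 in the knock-in against wild type, Pvr at -2.57, Cd28 at -1.52 and Cd200 at -1.21. Of the 14, 2 were higher and 8 lower there, where 75.4% of all tested genes were called in either direction. After quantile normalization those counts were 5 higher and 7 lower. The median change with LPS was then -0.02 in the knock-in and 0.04 in wild type, with 7 rising and 6 falling in wild type.

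Adhesion partners differed in direction between genes. Of 9 tested, 3 rose and 5 fell in the knock-in with LPS (median -0.44) and 5 rose and 1 fell in wild type (median 0.12, with 4 rising and 4 falling after quantile normalization and 7 rising and 0 falling by DESeq2). Vcam1, for a ligand of the integrin VLA-4, fell in the knock-in (-0.72) and rose in wild type (3.09). Itgal, for the LFA-1 chain that binds ICAM-1, rose in the knock-in (1.08) and in wild type (1.08). F11r rose in the knock-in (2.02) and in wild type (0.34), and Alcam fell in the knock-in (-1.32). In wild type Spn also rose (0.24). With LPS, 2 of 9 were higher in the knock-in than in wild type (4 after quantile normalization) and 5 lower (4). Of all tested genes, 75.4% were called there in either direction. Vcam1 was at -3.81, F11r at 1.83, Alcam at -1.52 and Spn at -0.91.

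The list of interferon-JAK-STAT factors and PD-L1 stabilisers covers genes known to act on Cd274 or its protein. Of 12, LPS raised 7 and lowered 2 in the knock-in and likewise in wild type, with medians of 0.24 in the knock-in and 0.31 in wild type. The leading genes differed. In the knock-in they included Stat2 (1.58), Stat3 (0.58) and Irf1 (0.48), and in wild type they were Irf1 (3.73), Jak2 (2.54), Hif1a (0.82) and Ifngr1 (0.79). With LPS, Stat2 (1.95) was higher in the knock-in than in wild type, and Irf1 (-3.06) and Jak2 (-2.37) were lower. Of the 12, 3 were higher and 6 lower there, with a median of -0.10, where 75.4% of all tested genes were called in either direction. Quantile normalization gave 5 higher and 4 lower with a median of 0.03, and in wild type 5 higher and 5 lower with LPS at a median of -0.07.

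March1 and March8 encode ubiquitin ligases known to lower surface CD86 and MHC class II. In the knock-in, LPS changes were -0.06 (limma adjusted p = 0.448) and 0.00235 (limma adjusted p = 0.979), with 0 of 2 under an unadjusted p of 0.05 by limma, and 0 calls by edgeR and DESeq2. In wild type March1 fell by 0.87 and March8 by 0.28 on the log2 scale. With LPS both were higher in the knock-in than in wild type, March1 by 0.70 and March8 by 0.38.

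Of 8 tested partners of CD44 and CD69, 2 rose and 3 fell in the knock-in (median -0.09), and 3 rose and 1 fell in wild type (median 0.08). Mmp14, for a protease that cleaves CD44, rose in the knock-in (1.56) and in wild type (2.19). Ezr, for the linker of CD44 to actin, rose in the knock-in (0.49) and in wild type (1.76). Hmmr, for another hyaluronan receptor that dividing cells make, fell in the knock-in (-2.0), as did Lgals1 (-0.77). In wild type S1pr1 fell (-0.81), and Msn rose (0.41), a direction that quantile normalization turned to -0.23. That scaling also moved the wild-type median to -0.21 and the wild-type count to 2 higher and 5 lower. With LPS, 1 of 8 was higher and 7 lower in the knock-in than in wild type, or 3 and 5 after quantile normalization. Of all tested genes, 75.4% were called there in either direction. Hmmr was at -2.30, Ezr at -1.26, Lgals1 at -0.79 and S1pr1 at 0.65. Without LPS, 0 of the 64 tested genes on the 7 lists passed limma between genotypes, 11 had an unadjusted p under 0.05, edgeR called 0 and DESeq2 called 2.

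**Figure D4:**
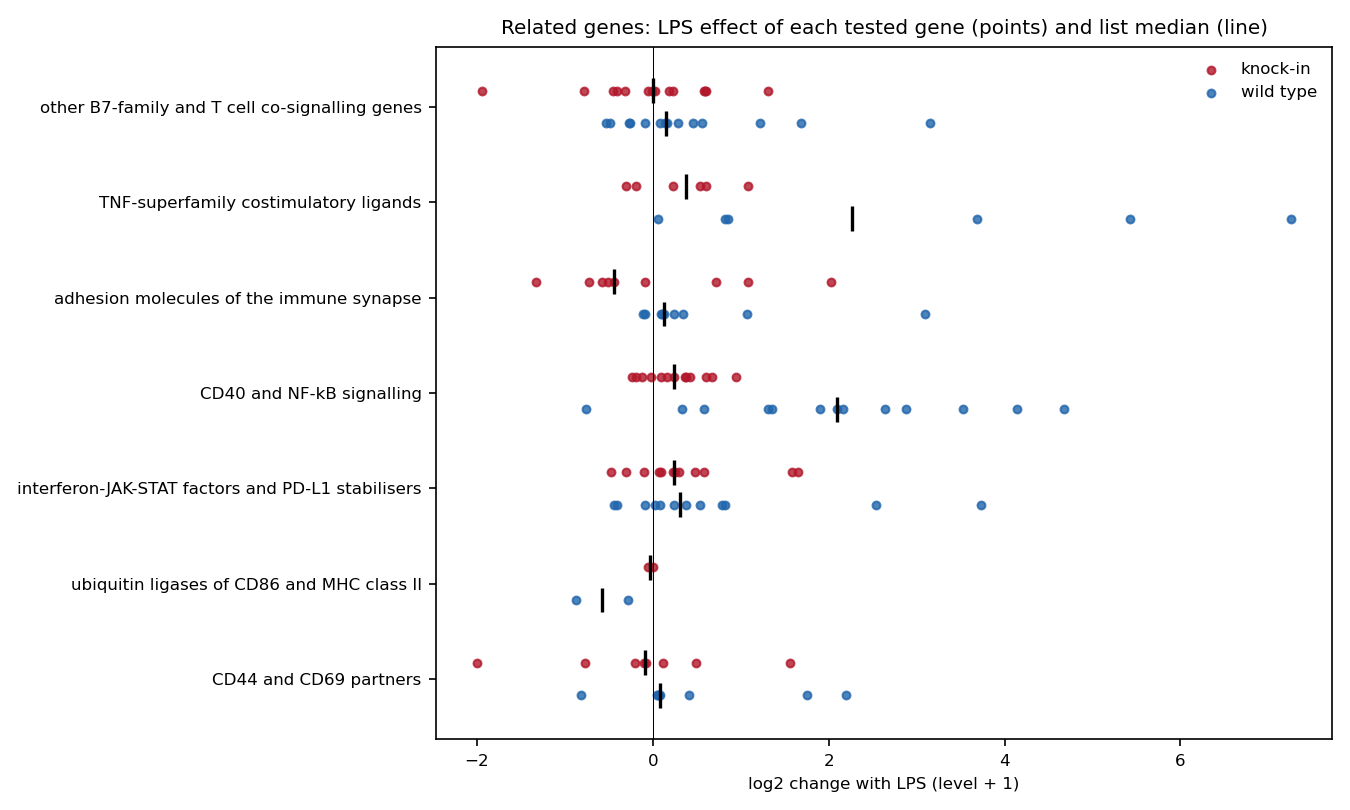
Log2 change of (level + 1) with LPS for each tested gene of the 7 lists, in the knock-in (red, upper row of each pair) and wild type (blue, lower row), with a black line at the median. The list of CD40 and NF-kB signalling has a median of 0.24 in the knock-in, against 2.10 in wild type. Of the TNF-superfamily ligands, 3 of the 6 points entered through 1 group only, so their median is no summary of the list.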

How the data were processed

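RNA was sequenced from 8 libraries in 4 groups of 2, grouped by sample title. The authors deposited 1 table of a normalised signal per gene. The signal has the form of TMM-scaled CPM, since values within a column are whole multiples of its smallest. All values above 0 gave whole reads within a tolerance of 0.001. The submitters' processing notes list TopHat2 2.0.9, bedtools, edgeR and the mm9 build. How reads were assigned to genes, on which strand and with which annotation is not given in the sources used here. Low counts were mostly even, at 63.5 to 65.5% of counts up to 100 reads, so the 2 mates of a pair may have been counted singly.

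Here log2(value + 1) was tested with limma 3.58.1 in R 4.3.3 (eBayes with a variance trend, 2-sided). The 11919 genes at 1 or more in at least 2 libraries entered 1 model of 4 group means, and p-values were Benjamini-Hochberg adjusted within each of 5 comparisons. The variance of each gene was drawn toward the trend over all genes, with 19.1 prior degrees of freedom against 4 residual ones. Fold changes of means use the deposited values. The log2 changes understate those of low genes. The script was tested on simulated data. Alternatives were a pseudocount of 0.5, no filter, a filter at 5, median-of-ratios and quantile scaling, a robust trend, edgeR 4.0.16 and DESeq2 1.42.0 on the recovered reads, a replicate block, each library left out, and the fit without the knock-in LPS libraries. The 10 genes and the 7 lists were chosen with earlier results of these data known, as were the motifs. All 10 genes are named in every comparison, and of a list up to 4 called genes with the largest absolute change. The values of 1 list gene are not reported here. Promoters came from RefSeq on GRCm38.p6.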

Additional observations from a re-analysis of the deposited data

Results flagged for a closer look

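For 8 genes the LPS effect differed between genotypes by limma's interaction term, and their values in log2, knock-in minus wild type, were as follows. The difference was -4.69 for Cd40 (95% interval -4.91 to -4.47) and -4.60 for Cd83 (-4.75 to -4.46). It was -3.90 for Icam1, -3.06 for Icosl, -2.29 for Cd69 and -2.15 for Cd44. The smallest were -1.73 for Cd80 (-1.99 to -1.46) and -1.15 for Cd86 (-1.41 to -0.88). For Cd83 and Cd44 the effects had opposite signs, since both fell in the knock-in and rose in wild type. Cd86 did the same (-0.23 and 0.91), but its decrease rested on knock-in LPS replicate 2. The knock-in LPS libraries also differed from the other 6 in sex, which cannot be told apart from the label. Groups of 2 libraries were too small to look for a library far from the others.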

How the results depend on the processing

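Over 18 alternatives, 776 of 783 recomputed changes of single genes kept their side of the threshold, and of those 6 changed sign while called in neither setting. The 2 that reversed were both Cd274 after quantile normalization, at 0.26 for knock-in against wild type with LPS and 0.31 for the interaction. The cause was not tested. The number of members called higher was then 1 in each of those comparisons. The 5 lost calls all concerned the decrease of Cd86 in the knock-in. Without the knock-in LPS libraries, 9 of 9 members were still higher with LPS in wild type. Other counts of called members stayed within 1.5 times. Between untreated genotypes, the count over all genes was 1 higher and 0 lower. It was 0 higher with no filter, 4 higher and 14 lower with a robust trend, 27 higher and 37 lower by DESeq2, and 1 lower without the knock-in LPS libraries. Leaving out single libraries gave 1 to 263 higher and 0 to 220 lower, the largest without untreated wild-type replicate 1. Of all genes called with LPS in wild type, 46.6% were higher as deposited and 35.4% after quantile normalization. The replicate numbers pair no samples by the labels, and the replicate differences of the groups correlated at -0.12 to 0.14 over genes. With the replicate block, 5 members were higher and 3 lower with LPS in the knock-in, 9 higher in wild type, and 8 lower in the interaction, as without it. Depth limits Pdcd1lg2, and 2 libraries per group limit all comparisons.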
